A study of Mus musculus with 16 samples.

Results

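The genes described here are 10 components of insulin and insulin-like growth factor (IGF) signalling: the ligands Igf1 and Igf2, the receptors Insr, Igf1r and Insrr, the adaptors Irs1 and Irs2, and the transcription factors Foxo1, Foxo3 and Foxo4. They were matched by symbol to 10 of the 45706 gene identifiers in the deposited count table. The group was selected on its CPM values in the paired comparison of 24 with 30 months, with earlier results of that comparison in view, so the age differences of these genes are a description: no p-value of a member is given for them, and counts of members past a threshold stand beside the share of all genes and support nothing. The RNA came from ear skin of 8 male C57BL/6J mice, each clipped with a punch at about 24 months (labelled young, 23.8 to 24.4 months) and, in the other ear, at about 30 months (labelled old, 29.0 to 30.1 months), which gave 16 libraries. The labels name no transgene, deletion or treatment, and the number in a library's name marks the animal.

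Insulin, IGF1 and IGF2 bind tyrosine kinase receptors at the cell surface, the receptors phosphorylate the IRS adaptors, and the adaptors recruit PI3-kinase, which leads to activation of the kinase AKT. AKT phosphorylates FOXO proteins and keeps them out of the nucleus, so that FOXO target genes are transcribed when insulin and IGF input is low. In skin, fibroblasts and other dermal cells make IGF1, keratinocytes carry IGF1 and insulin receptors, and reduced activity of the pathway is linked to long life in several animals. RNA levels do not show phosphorylation or the location of a protein.

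The FOXO recognition heptamers GTAAACA and CAAAACA were searched for on both strands in promoter windows of 300 bases from RefSeq (GRCm38.p6, 250 bases before to 50 after the start of transcription). The second heptamer is known as the insulin response sequence. Windows were found for 7 of the 10 genes, 10 windows in all because Igf2 has 4. CAAAACA or its reverse TGTTTTG was in 2 of these 10 windows and in 6.28% of 32851 promoters, and GTAAACA or its reverse TGTTTAC was in 0 of 10 and in 3.65% of all. The 2 windows with a match belong to the adaptor genes Irs1 and Irs2, and they are shown because Irs2 had the widest spread between libraries of the members above 1 CPM, counts scaled to a library of 1000000. The windows of Foxo1 and Foxo3 are shown beside them because these were the 2 members whose levels ran most closely together, and neither holds a match. Each is written on the strand of its gene, 5′ to 3′, with matches to TGTTTTG in capitals.
Irs1 (minus strand, chr1:82291390-82291689): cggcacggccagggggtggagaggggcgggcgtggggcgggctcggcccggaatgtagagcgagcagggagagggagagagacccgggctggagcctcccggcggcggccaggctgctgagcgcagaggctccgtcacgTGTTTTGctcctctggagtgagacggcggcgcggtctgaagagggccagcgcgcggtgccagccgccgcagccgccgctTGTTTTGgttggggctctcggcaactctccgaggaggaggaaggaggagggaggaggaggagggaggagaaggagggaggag
Irs2 (minus strand, chr8:11008880-11009179): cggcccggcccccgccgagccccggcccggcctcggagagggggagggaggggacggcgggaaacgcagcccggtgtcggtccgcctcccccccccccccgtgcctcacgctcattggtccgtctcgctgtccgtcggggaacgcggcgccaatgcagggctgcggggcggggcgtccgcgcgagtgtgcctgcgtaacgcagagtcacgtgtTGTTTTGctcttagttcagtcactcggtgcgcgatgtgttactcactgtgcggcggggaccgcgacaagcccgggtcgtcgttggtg
Foxo1 (plus strand, chr3:52268087-52268386): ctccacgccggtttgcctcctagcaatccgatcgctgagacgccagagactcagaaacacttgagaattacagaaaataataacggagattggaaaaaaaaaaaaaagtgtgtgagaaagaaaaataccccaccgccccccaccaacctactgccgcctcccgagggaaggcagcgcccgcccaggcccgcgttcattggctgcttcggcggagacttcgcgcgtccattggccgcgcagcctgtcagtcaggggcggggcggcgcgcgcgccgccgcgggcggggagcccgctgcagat
Foxo3 (minus strand, chr10:42276646-42276945): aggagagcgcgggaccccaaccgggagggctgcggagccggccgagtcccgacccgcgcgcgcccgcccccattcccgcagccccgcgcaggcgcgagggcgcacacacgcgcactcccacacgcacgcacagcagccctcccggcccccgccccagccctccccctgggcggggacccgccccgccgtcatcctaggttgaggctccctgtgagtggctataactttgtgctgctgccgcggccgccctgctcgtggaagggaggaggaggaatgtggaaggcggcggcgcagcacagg
In Irs1 the 2 matches began 111 and 32 bases before the start, and in Irs2 the single match began 37 bases before it. The windows were rich in G and C, with 71.3% in Irs1, 72% in Irs2, 61.3% in Foxo1 and 75% in Foxo3 against a median of 52.7% over all promoters. A match of letters does not show that a factor binds there.

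Counts assigned to genes ranged from 27494852 to 35527197 per library at 24 months and from 22967222 to 36162431 at 30 months. Levels are given in CPM, with library totals adjusted by edgeR's TMM factors. Keratinocyte markers were abundant in all libraries (Krt5 2203 to 6383 CPM, Krt10 6631 to 13581 CPM), and cartilage, muscle, fat and fibroblast markers were present. All 10 members were among the 21526 genes that passed the filter on low counts. The paired edgeR test called 0 genes at an adjusted p under 0.05 (0% of the genes tested), 2593 genes at an unadjusted p under 0.05, of which 1047 were higher at 30 months (4.86% of the genes tested) and 1546 lower (7.18%), and a DESeq2 Wald test called 228 of 19529 genes after adjustment (1.17%).

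One library stood apart for these genes. The 30-month library of mouse 29 was above all of the other 15 libraries for 7 of the 10 members (Insr, Igf1r, Irs1, Irs2, Foxo1, Foxo3 and Foxo4) and below all of them for 1, Igf1. Over all genes tested, this library was above every other for 17.6% and below every other for 17.3%, the highest share above of any library (1.08% to 12.1% in the rest), and its share of reads outside genes, 21.1%, was the highest of the 16. Results that rest on it are given with and without it. The 30-month library of mouse 50 had the lowest median correlation with the other libraries (0.967, against 0.968 for that of mouse 29) and the highest means of fibroblast, macrophage, T cell, mast cell and endothelial markers.

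**Figure D1:**
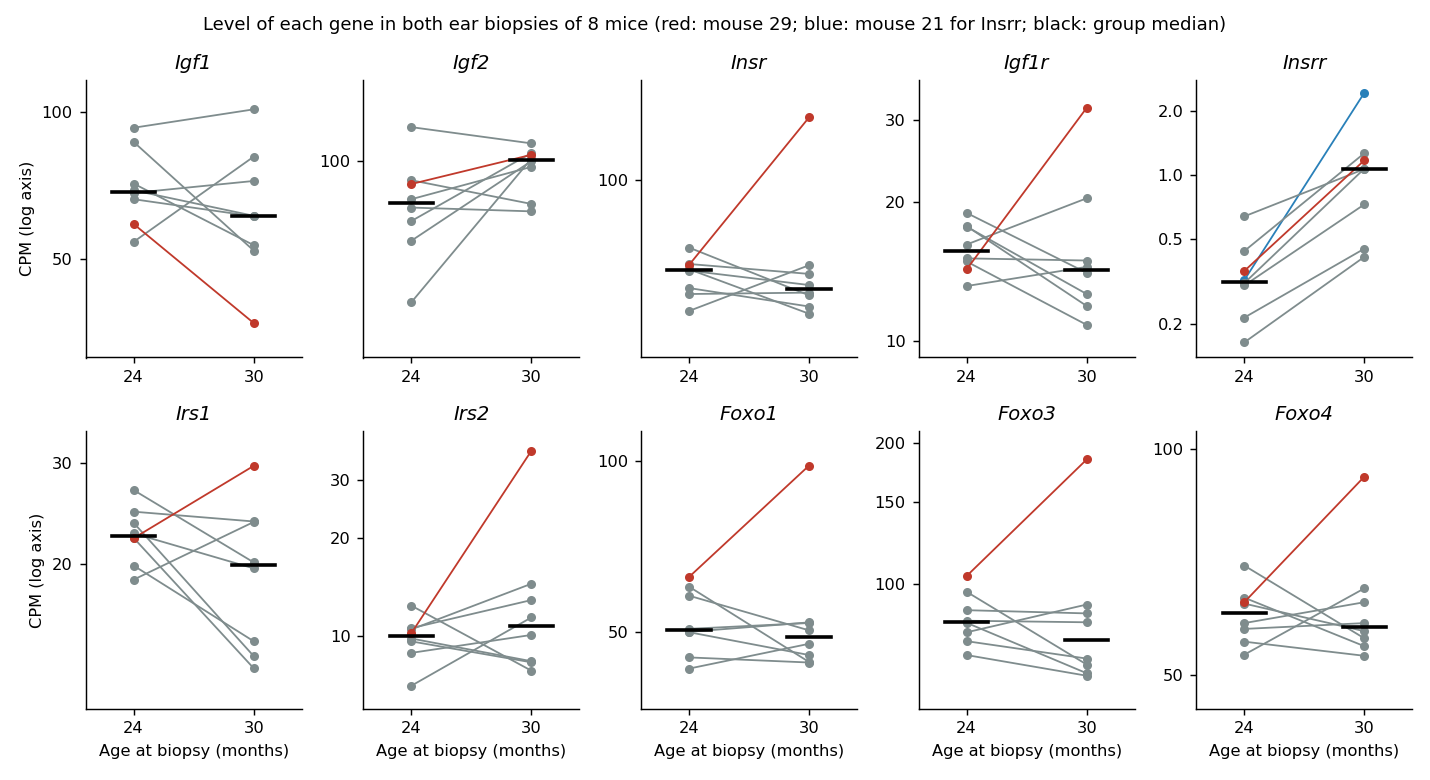
Level of each of the 10 genes in CPM on a log axis at 24 and 30 months, with a line for each of 8 mice and a black bar for the median of each age. All 8 lines of Insrr go up, while for Insr, Igf1r, Irs2 and the 3 Foxo genes the red line of mouse 29 ends far above the other 7.

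Both ligand genes had medians between 61.2 and 100.4 CPM, and for neither were the ages apart. Igf1 (ENSMUSG00000020053, chr10:87858265-87937042) encodes the main growth-promoting ligand of IGF1R. Its level at 24 months had a lowest value of 54.2, a median of 68.7 and a highest value of 92.9 CPM, and at 30 months 37.0, 61.2 and 101 CPM. The ages overlapped, with 3 of 8 mice higher at 30 months. The largest decreases were in mouse 13 (log2 change -0.74) and mouse 29 (-0.67), and the largest increase was in mouse 50 (0.58). The fitted log2 fold change of 30 over 24 months was -0.17 (SE 0.14), or -0.09 (SE 0.13) without mouse 29, -0.07 (SE 0.13) without mouse 13 and -0.27 (SE 0.11) without mouse 50. In bulk tissue, fewer cells of a type and less RNA per cell cannot be told apart.

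Over all 16 libraries, Igf1 followed the fibroblast markers of the biopsy most closely of the 17 marker lists examined. The Pearson correlation of its log2 CPM with the mean of 8 fibroblast genes (Col1a1, Col3a1, Dcn and others) was 0.78 over 16 libraries and 0.65 over the 15 without mouse 29 at 30 months. Summed fibroblast markers ranged from 4001 to 7751 CPM at 24 months and from 2597 to 14317 CPM at 30 months, and the lowest sum was that of mouse 29 at 30 months. All 8 of these markers had counts. The list of plasma and B cell genes gave 0.76 with all libraries and 0.65 without that library, the macrophage list gave 0.49 and 0.67, and the list of Schwann cell genes gave -0.73 and -0.75. The part of cell composition in the Igf1 values was not tested.

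Igf2 (ENSMUSG00000048583, chr7:142650766-142666816), the imprinted fetal growth factor that also binds IGF1R, was measured at 65.9, 88.3 and 111 CPM (lowest, median, highest) at 24 months and at 86.3, 100.4 and 105 CPM at 30 months. The 30-month libraries lay within the range of the 24-month libraries, and 3 of the 24-month libraries were below the lowest 30-month value. The level was higher at 30 months in 5 of 8 mice, by up to 0.61 (log2) in mouse 14, and the fitted log2 fold change was 0.16 (SE 0.08). Of the exon bases of Igf2, 62.8% are shared with Gm49394, an overlapping gene on the same strand in the GENCODE M21 annotation with no row in the table, and reads in those bases could belong to either.

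Insr and Igf1r, the receptors for insulin and for IGF1, differed little in median between the ages. Insr (ENSMUSG00000005534, chr8:3122061-3279617) had 61.4, 71.6 and 77.8 CPM at 24 months and 60.8, 66.7 and 126 CPM at 30 months. The value of 126 was mouse 29, and the other 7 libraries at 30 months stayed under the 24-month maximum. Igf1r (ENSMUSG00000005533, chr7:67952827-68233668) had 13.1, 15.6 and 18.9 CPM at 24 months and 10.8, 14.3 and 32.0 CPM at 30 months. Mouse 29 was again the highest, and 3 libraries at 30 months were below the lowest at 24 months. The fitted log2 fold changes were 0.04 (SE 0.11) for Insr and -0.04 (SE 0.18) for Igf1r. Without mouse 29 they were -0.06 (SE 0.07) and -0.21 (SE 0.12), so the sign of the Insr value rested on that mouse.

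Insrr (ENSMUSG00000005640, chr3:87796951-87816101, plus strand) encodes the insulin receptor-related receptor, a family member that does not bind insulin and is known as a sensor of alkaline pH. It was the rarest of the 10 genes, and the single one that was higher at 30 months in 8 of 8 mice. Counts were 5 to 18 per library at 24 months (82 in all) and 14 to 57 at 30 months (235 in all). At 24 months the lowest, median and highest levels were 0.164, 0.316 and 0.639 CPM, and at 30 months 0.413, 1.07 and 2.43 CPM. The ages overlapped, with 6 of the 8 libraries at 30 months above the highest at 24 months. The mean was 0.343 ± 0.146 CPM (SD, n = 8) at 24 months and 1.07 ± 0.636 CPM (SD, n = 8) at 30 months, and the fitted log2 fold change was 1.55 (SE 0.24), a 2.94-fold difference.

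The size of the Insrr difference varied between animals. On the log2 CPM scale with a prior count of 2, it was smallest in mouse 75 (0.68) and largest in mouse 21 (2.68), whose 30-month library had the 2.43 CPM, while mouse 29 (1.55) lay between them. Leaving out each mouse in turn gave fitted values from 1.35 (without mouse 21) to 1.70 (without mouse 75). Of all genes tested, 1.08% were higher in 8 of 8 mice. Insrr was also the 1 member counted as higher at an unadjusted p under 0.05 with edgeR (4.86% of all genes) and at an adjusted p under 0.05 with DESeq2 (1.17% of all genes), and 0 of the 10 passed edgeR's adjusted threshold. These counts describe the contrast by which the group was chosen.

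Insrr lies inside the span of Pear1 (chr3:87747890-87824306), a gene for a membrane protein of platelets and endothelial cells on the opposite strand, with 0 shared exon bases. The library kit does not mark strand, so reads from unspliced Pear1 RNA within Insrr exons could be counted for Insrr. Pear1 was at 22.3 ± 2.01 CPM at 24 months and 29.3 ± 7.38 CPM at 30 months, a log2 fold change of 0.36 (SE 0.14) with 6 of 8 mice higher, and its log2 CPM correlated with that of Insrr at r = 0.61 over 16 libraries. The sum of 7 endothelial markers ranged from 122 to 171 CPM at 24 months and from 128 to 345 CPM at 30 months, and none of the 7 was at 0. The mean of their log2 CPM changed by 0.53 ± 0.64 (SD, n = 8), was higher in 6 of 8 mice and had r = 0.62 with Insrr. Immediate-early genes such as Fos and Egr1, which respond within minutes to handling and injury, were also higher in 8 of 8 mice as a list (0.61 ± 0.38, SD, n = 8), with r = 0.28 with Insrr. The part of Pear1 and of these marker lists in the Insrr values was not tested.

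The adaptor Irs1 was lower at 30 months in 6 of 8 mice and Irs2 in 3 of 8, and the within-mouse changes of both genes had the same sign in 5 of 8 mice, with r = 0.86 over 8 mice and 0.82 over the 7 without mouse 29. Irs1 (ENSMUSG00000055980, chr1:82233101-82291416), the adaptor linked mainly to growth signalling, had 18.8, 22.4 and 26.9 CPM at 24 months and 13.1, 19.9 and 29.6 CPM at 30 months. At 30 months, 3 libraries (mice 21, 50 and 64) were under the 24-month minimum, but mouse 29 held the highest value of all. The fitted log2 fold change was -0.23 (SE 0.14) and -0.32 (SE 0.13) without mouse 29. The opposite-strand gene Gm9747 covers 30.9% of the Irs1 exon bases and is listed at 0 in all libraries.

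Irs2 (ENSMUSG00000038894, chr8:10984681-11008458), the adaptor most tied to metabolic insulin action, had 7.02, 9.99 and 12.4 CPM at 24 months and 7.81, 10.7 and 37.0 CPM at 30 months. The 37.0 CPM of mouse 29 was 3.66 times the median of the other 15 libraries, and the next highest library had 14.4 CPM. Among the other 7 mice, 4 were higher and 3 lower at 30 months. The mean at 30 months was 13.8 ± 9.67 CPM (SD, n = 8) with mouse 29 and 10.5 ± 2.55 CPM (SD, n = 7) without it, and the fitted log2 fold change went from 0.29 (SE 0.23) to 0.08 (SE 0.16).

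The 3 FOXO genes were nearly level between the ages. Foxo1 (ENSMUSG00000044167, chr3:52268336-52353221) had 43.1, 50.3 and 62.4 CPM at 24 months and 44.2, 49.0 and 98.0 CPM at 30 months. Foxo3 (ENSMUSG00000048756, chr10:42181841-42276755), the member whose human counterpart is associated with longevity, had 70.6, 83.1 and 104 CPM at 24 months and 63.8, 76.1 and 185 CPM at 30 months. Foxo4 (ENSMUSG00000042903, chrX:101254528-101260873) had 53.3, 60.5 and 70.0 CPM at 24 months and 53.1, 58.0 and 92.0 CPM at 30 months. For each of them the highest 30-month value was mouse 29 and the other 7 libraries stayed under the 24-month maximum. Foxo3 was below the 24-month minimum in 4 libraries at 30 months and lower at 30 months in 6 of 8 mice, against 4 of 8 for Foxo1 and for Foxo4.

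The fitted log2 fold changes of the FOXO genes were 0.01 (SE 0.10) for Foxo1, -0.02 (SE 0.13) for Foxo3 and 0.03 (SE 0.09) for Foxo4. Without mouse 29 they were -0.08 (SE 0.07), -0.14 (SE 0.08) and -0.04 (SE 0.08). With all mice, the median log2 fold change was 0.02 over the 10 members and 0.01 over all genes tested. Without mouse 29, the median of all genes was 0.01. In that fit, Insr, Igf1r, Igf1, Irs1 and the FOXO genes were all below 0, from -0.32 (Irs1) to -0.04 (Foxo4). Insrr (1.54), Igf2 (0.17) and Irs2 (0.08) were above 0.

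**Figure D2:**
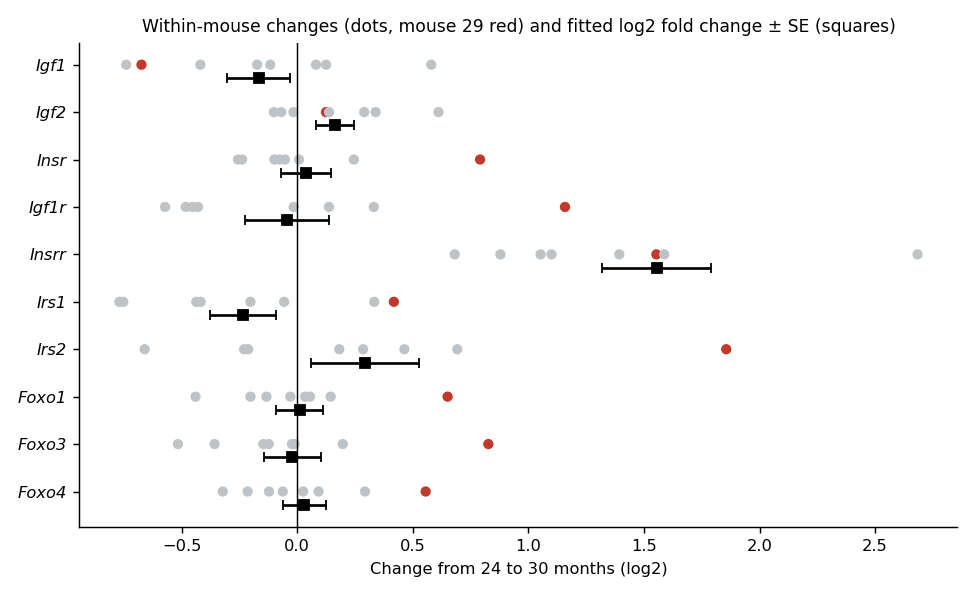
Change from 24 to 30 months on the log2 scale for each gene, with a dot for each of 8 mice (log2 CPM, mouse 29 in red) and a square with bars for the fitted log2 fold change and its SE. Insrr is the gene with all dots right of 0, from 0.68 to 2.68, and mouse 29 is the rightmost dot for 7 of the 10 genes.

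In the 30-month library of mouse 29, the increase covered Insr, Igf1r, Irs1, Irs2 and the FOXO genes together. Relative to the median of the other 15 libraries, Irs2 was 3.66 times higher, Foxo3 2.23, Igf1r 2.15, Foxo1 1.96, Insr 1.86, Foxo4 1.57 and Irs1 1.34, while Igf1 was at 0.542 of that median and Igf2 at 1.09. Insrr, at 1.17 CPM, was within the range of the others. The same mouse at 24 months had the highest Foxo3 and Foxo1 of all 24-month libraries (104 and 62.4 CPM). Its 24-month levels of Insr, Igf1r, Irs1, Irs2 and Foxo4 (72.8, 14.3, 22.1, 10.2 and 62.6 CPM) were neither the highest nor the lowest of that age.

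FOXO target genes known from other tissues were raised in the same library. Of 40 such genes tested, 25 (62.5%) were above every other library and 5 (12.5%) below, beside 17.6% and 17.3% of all genes. Their median log2 deviation from the other libraries was 0.91, and that of all genes was -0.02. The other pathway lists, described further below, had smaller shares above every other library. These were 35% of PI3K, AKT and mTOR genes, 33.3% of ligands and binding proteins and 29.4% of FOXO regulators. Of 19 receptor-proximal adaptors and inhibitors, 1 (5.26%) was above. In the same order, 12.5%, 20%, 23.5% and 10.5% were below every other library. The genes named here were chosen after their values were seen. Pdk4, a kinase that shuts off glucose oxidation, was at 155 CPM against 5.61 to 46.7 CPM in the others, and 10.4 CPM in the same mouse at 24 months. Txnip, an inhibitor of glucose uptake, was at 4037 CPM against 404 to 661 CPM. Klf15, a factor for fasting metabolism, was at 62.0 CPM against 10.4 to 19.3 CPM. Not all targets were raised. Sod2, Sesn3, Gadd45a, Cdkn2d and Angptl2 were the 5 below every other library, Angptl2 with 48.8 CPM against 66.0 to 98.3 CPM.

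The targets above the rest came from several functions. Trim63 and Fbxo32, ubiquitin ligases of muscle wasting, were at 35.2 CPM against at most 18.3 CPM and at 144 CPM against at most 109 CPM. Gabarapl1 and Map1lc3b, which build autophagosomes, were at 251 CPM against at most 88.5 CPM and at 361 CPM against at most 161 CPM. Pnpla2, the first lipase of fat breakdown, was at 381 CPM against at most 124 CPM, and Sesn1, a stress-induced inhibitor of mTORC1, was at 291 CPM against at most 92.0 CPM. Of the 3 cell cycle inhibitor genes named Cdkn in the list, Cdkn1a was at 375 CPM against at most 259 CPM and Cdkn1b at 195 CPM against at most 154 CPM, while Cdkn2d was at 13.2 CPM against at least 13.5 CPM.

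Tissue markers also moved in that library. It had the lowest mean of all libraries for fibroblast (8 of 8 genes with counts), cartilage (10 of 10), pigment cell (6 of 6) and plasma and B cell markers (8 of 8), and the highest for fat cell markers (10 of 10). Summed fat cell markers were 1218 CPM in it, against 251 to 574 CPM at 24 months, and pigment cell markers 69.1 CPM against 101 to 180 CPM. With this library included, the 30-month sums ranged from 227 to 1218 CPM for fat cell and from 69.1 to 121 CPM for pigment cell markers. The mean of the pigment cell markers was higher at 30 months in 1 of 8 mice. Muscle markers were near the middle (1923 CPM; 850 to 10371 CPM at 24 months), and none of the marker genes of these lists was at 0. The part of tissue composition, and of RNA quality, in the values of this library was not tested.

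**Figure D3:**
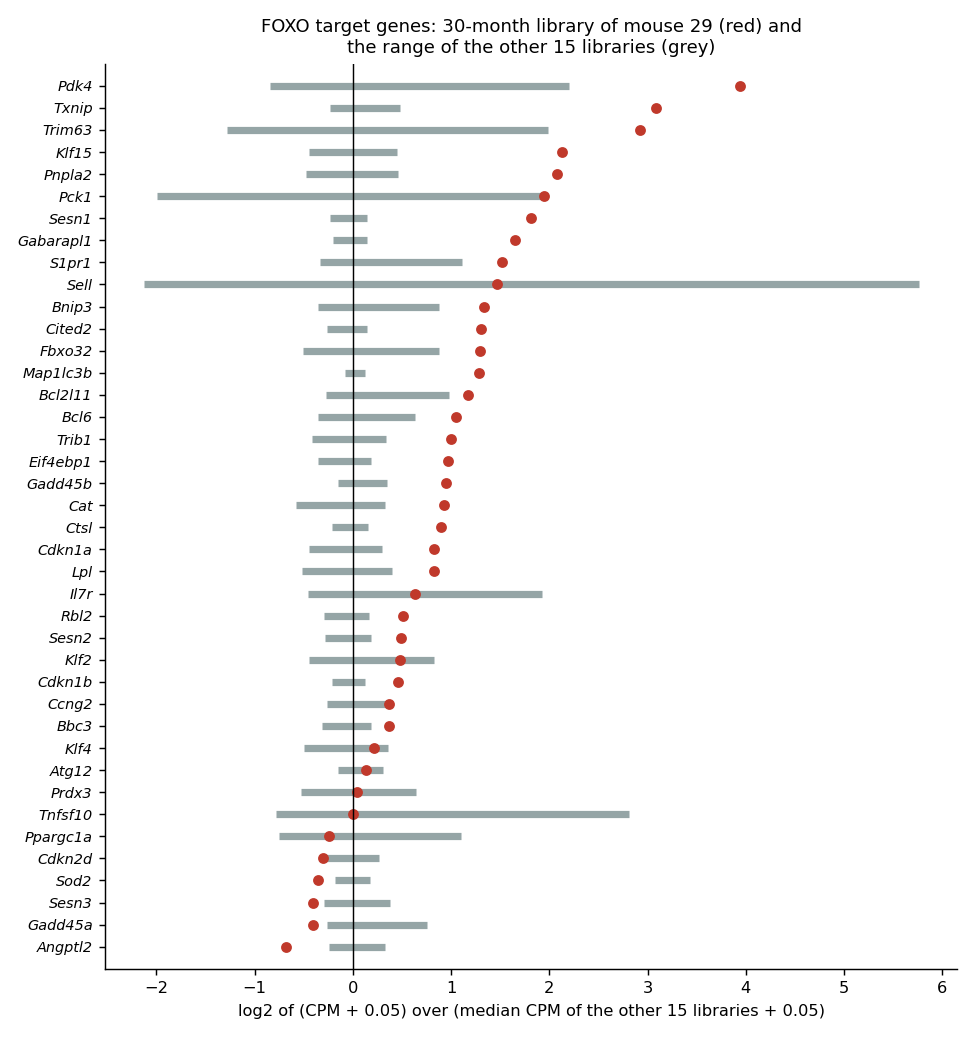
Each row is 1 of 40 FOXO target genes, with the level in the 30-month library of mouse 29 (red dot) and the range of the other 15 libraries (grey bar) as log2 of CPM + 0.05 relative to the median of those 15. The red dot lies right of the bar for 25 genes and left of it for 5.

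Across libraries, the receptors Insr and Igf1r, the adaptors and the FOXO genes varied together, and Igf1 ran against them. These values are descriptive, since 2 libraries come from each mouse and all share the same scaling. The 7 genes are those that were highest in the 30-month library of mouse 29, which raises their r over 16 libraries. No set of other genes was taken for comparison. Among the 7 genes, the 21 Pearson correlations of log2 CPM ranged from 0.58 to 0.96 with a median of 0.80, and without the 30-month library of mouse 29 they ranged from 0.05 to 0.88 with a median of 0.52. Foxo1 and Foxo3 were the closest pair, with 0.96 over 16 libraries and 0.88 over 15. Insr and Foxo4 had 0.92 and 0.75, while Insr and Irs2 fell from 0.80 to 0.05. Over the 15 libraries, the mean of basal keratinocyte markers had r of 0.36 to 0.62 with the 7 genes and -0.66 with Igf1. The macrophage list had -0.74 to -0.17 with the 7 genes and 0.67 with Igf1. The skeletal muscle list had r of both signs with the 7 genes, from -0.44 (Foxo3) to 0.62 (Foxo4). The part of cell composition in these correlations was not tested.

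Igf1 correlated with those 7 genes at -0.84 to -0.58 over 16 libraries and at -0.73 to -0.22 over 15, the most negative being Foxo4 in both. Insrr ran against Irs1 (-0.45 over 16 libraries and -0.64 over 15), and the within-mouse changes of Insrr had r of -0.47 with those of Irs1 over 8 mice. Over the 7 mice other than mouse 29, the changes of Insrr had r of -0.68 with Irs1, -0.71 with Irs2, -0.70 with Foxo1, -0.72 with Foxo3 and -0.55 with Igf2, against -0.30, -0.30, -0.28 and -0.55 with the latter 4 over 8 mice. With Insr, Igf1r, Igf1 and Foxo4, r over the 7 mice was 0.19, -0.13, 0.13 and -0.08. Mouse 21 had the highest change of Insrr and the lowest of Irs2, Foxo1, Foxo3 and Igf2. Values of r without mouse 21 were not computed. Igf2 with Insr had -0.04 over 16 libraries and -0.57 over 15. For the within-mouse changes of the 7 genes, 18 of 21 correlations over the 7 mice other than mouse 29 were above 0, with a median of 0.45.

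**Figure D4:**
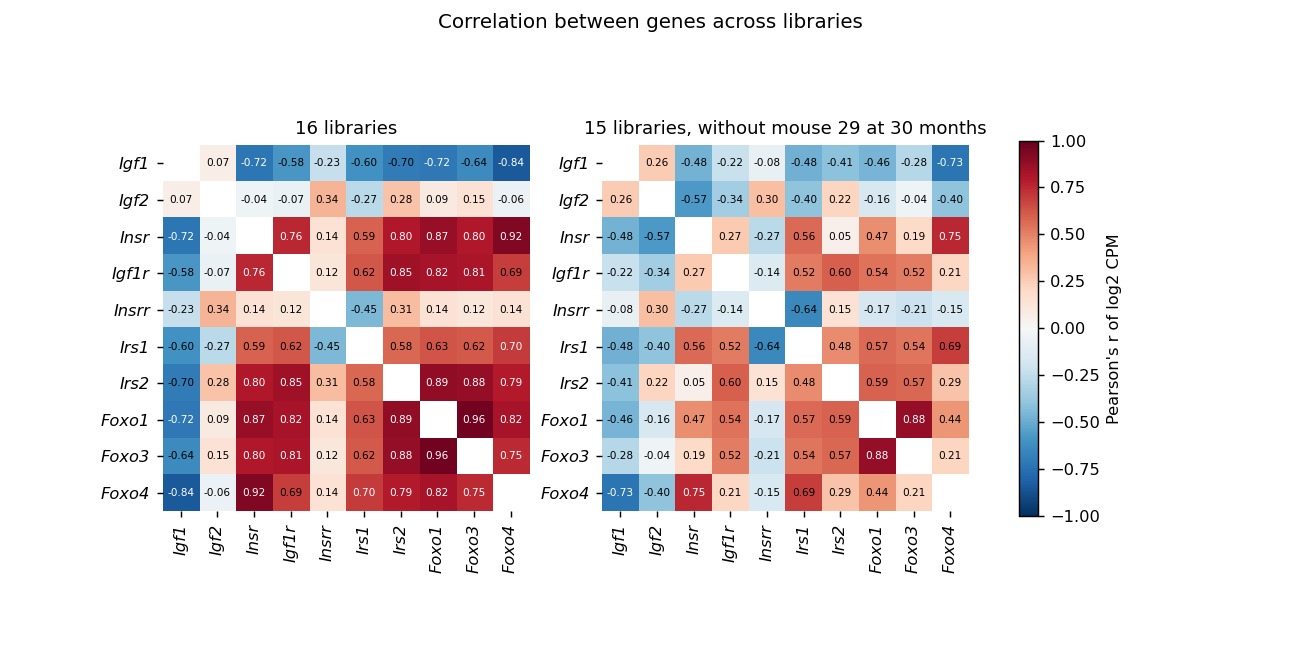
Pearson's r of log2 CPM between the 10 genes, over 16 libraries on the left and over 15 on the right, on a color scale from -1 to 1 with the value in each square. The block of Insr, Igf1r, Irs1, Irs2 and the Foxo genes stays positive in both, with a median that goes from 0.80 to 0.52.

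The genes whose pattern was most like each member were taken from all genes with a mean of at least 1 CPM, which leaves out Insrr. Foxo3 was most like Fosl2 (r = 0.97 over 16 libraries and 0.90 over 15) and Foxo1 most like Foxo3. Foxo4 was most like Tead1 (0.96 and 0.91), Irs2 most like Calcoco1 (0.97 and 0.86), and Irs1 most like Vsig10l (0.92 and 0.90). Igf1r was most like Kdm3b (0.94 and 0.90) and Insr most like Fam13a (0.95 and 0.72). Over the 15 libraries, of these only Kdm3b stayed the first in order. Foxo3 then ranked 2 for Foxo1, Vsig10l 3 for Irs1 and Tead1 7 for Foxo4. Fosl2 ranked 13 for Foxo3, Calcoco1 41 for Irs2 and Fam13a 55 for Insr.

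Of the ligands, Igf1 was most like Ccdc88a (0.91 in both) and next most like Aspn (0.90 and 0.87), a small matrix proteoglycan. Igf2 was most like Faim (0.84 and 0.85). For Insr the likeness depended most on mouse 29, since Map1lc3b, the second in the order, went from 0.94 to 0.56.

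To compare levels between the genes, counts were divided by exon length, giving RPKM, reads scaled to exon length in kilobases and to library size, with the union of exons in GENCODE M21. Foxo4 (17.6 ± 2.44 RPKM, SD, n = 16 libraries) and Igf2 (16.2 ± 1.94) were the most abundant, then came Foxo3 (11.4 ± 3.60), Igf1 (6.87 ± 1.71), Foxo1 (6.14 ± 1.45) and Insr (5.23 ± 1.04). Irs1 (2.31 ± 0.472), Irs2 (1.86 ± 1.06) and Igf1r (0.962 ± 0.281) were lower, and Insrr was the lowest at 0.124 ± 0.104 RPKM. The Irs1 length includes the bases shared with Gm9747, so its level could be underestimated if reads there went uncounted. The Igf2 level could include reads of Gm49394, which shares 62.8% of the Igf2 exon bases. The lowest library for the insulin receptor gene Insr (4.42 RPKM) was above the highest for the IGF1 receptor gene Igf1r (1.85 RPKM).

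Neighbours in this order were compared over 8 mice with an exact permutation test (signs flipped, two-sided) of log2 RPKM, with Benjamini-Hochberg adjustment over 9 pairs. The order was set by these same levels, and the smallest unadjusted p that this test allows with 8 mice is 0.0078. Foxo4 and Igf2 did not differ beyond their spread (difference 0.12, exact permutation adjusted p = 0.149), nor did Igf1 and Foxo1 (0.15, exact permutation adjusted p = 0.461). Without mouse 29 the Igf1 to Foxo1 difference was 0.30, with an unadjusted exact permutation p of 0.0156, and without mouse 64 the Foxo4 to Igf2 difference was 0.17, with the same p. That p is the smallest the test allows with 7 mice. The other 7 neighbours differed, with exact permutation adjusted p of 0.0176 or 0.0201 and log2 differences from 0.22 (Foxo1 over Insr) to 3.13 (Igf1r over Insrr). With the length of the longest transcript instead, Foxo1 was below Insr (-0.33), and Foxo3 over Igf1 lost the call (0.39, exact permutation p = 0.0547).

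**Figure D5:**
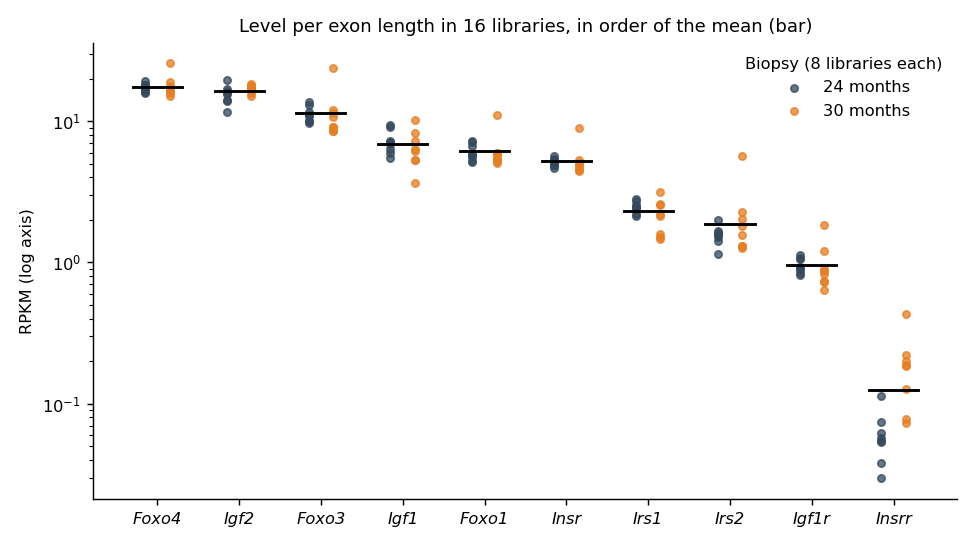
Level of each gene in RPKM on a log axis, in order of the mean over 16 libraries (bar), with dots for 8 libraries at 24 months and 8 at 30 months. The means run from 17.6 RPKM for Foxo4 to 0.124 RPKM for Insrr.

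Mice did not detectably keep their rank between the biopsies. The Pearson correlation over 8 mice between log2 CPM at 24 and at 30 months ranged from -0.33 (Igf1r) to 0.67 (Foxo3), and 0 of 10 members had an exact permutation p under 0.05, where 4.01% of all genes did. For Foxo3, r was 0.67 (exact permutation p = 0.0632) and Spearman's rho 0.52 (exact permutation p = 0.197), and r without the 2 mice farthest from the median at 24 months was -0.16, so the relation rested on those mice. Without mouse 29, r was 0.19 for Foxo3, 0.06 for Foxo1 (0.55 with it), -0.33 for Insr (0.13 with it), -0.09 for Igf1r and -0.45 for Foxo4 (-0.01 with it), so the order of these values rested on that mouse. For Insrr, r was 0.60 (exact permutation p = 0.109), rho 0.69 (exact permutation p = 0.0694) r without the 2 farthest mice 0.63 and r without mouse 29 0.59. After adjustment over all 21526 genes, the lowest p among members was 0.999. The median r was 0.08 for the members and -0.03 for all genes.

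The other genes of the pathway were counted in 5 lists of 140 genes, of which 129 were tested. At an unadjusted p under 0.05, 11 of the 129 were higher and 5 lower at 30 months (4.86% and 7.18% of all genes), 0 passed edgeR's adjusted threshold and 4 passed that of DESeq2 (1.17% of all genes). Of all 21526 genes tested, 232 were higher at 30 months in 8 of 8 mice and 364 were lower in 8 of 8. Among ligands and binding proteins, 2 of 15 were higher and 1 lower at an unadjusted p under 0.05. Igfbp5, which binds IGFs in the matrix, had 534 ± 88.7 CPM at 24 months and 386 ± 102 CPM at 30 months and was lower in 8 of 8 mice (log2 fold change -0.51, SE 0.15, edgeR adjusted p = 0.279). Insl3, a relaxin-like hormone, was near the detection limit (0.144 and 0.313 CPM), and Stc1, an inhibitor of the protease that frees IGFs from binding proteins, was at 1.97 ± 0.789 and 4.27 ± 2.92 CPM.

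Of 19 receptor-proximal adaptors and inhibitors, 1 was higher and 1 lower. Socs3, a feedback inhibitor of cytokine and insulin receptors, was at 24.9 ± 2.56 CPM at 24 months and 37.4 ± 14.2 CPM at 30 months, higher in 8 of 8 mice (0.52, SE 0.14, edgeR adjusted p = 0.255), and was among the 4 called by DESeq2. The receptor phosphatase gene Ptprf was lower in 6 of 8 mice (-0.25, SE 0.11). Nedd4, the most abundant of the list with 503 CPM at 24 months, was at -0.14 (SE 0.08).

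Of 40 genes for PI3K, AKT and mTOR kinases and phosphatases, 3 were higher and 3 lower, with a median log2 fold change of 0.01. Sgk1, a kinase close to AKT that also phosphorylates FOXO proteins, was at 156 ± 11.6 CPM and 267 ± 142 CPM, higher in 8 of 8 mice (0.64, SE 0.18, edgeR adjusted p = 0.269), and was called by DESeq2. Mlst8, a subunit of both mTOR complexes, was lower in 8 of 8 mice (-0.37, SE 0.10). Eif4ebp1, the translation repressor that mTOR inactivates, was higher in 8 of 8 (0.35, SE 0.12, or 0.24 without mouse 29). Akt1s1 (0.15, SE 0.06) and Pik3r2 (-0.18, SE 0.08) were the other named genes. The list of FOXO regulators had 0 of 17 genes at an unadjusted or adjusted p under 0.05 with edgeR and 0 called by DESeq2, and its most abundant gene, Sfn, was at 413 and 417 CPM.

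Of the 40 FOXO target genes, 6 were higher and 0 lower at an unadjusted p under 0.05, beside 4.86% and 7.18% of all genes, 30 (75%) had a positive fold change beside 51.7% of all genes, and the median log2 fold change was 0.17 beside 0.01. Without mouse 29, 5 were higher and 1 lower (3.57% and 5.84% of all genes in that fit), 26 (65%) were positive beside 52.7% of all genes, and the median was 0.08 beside 0.01. Klf2 and S1pr1, which act in endothelial cells and lymphocyte traffic, were higher in 7 of 8 mice (0.51, SE 0.14, and 0.68, SE 0.20), and both were called by DESeq2. Bcl2l11, which encodes the death factor BIM, was at 0.47 (SE 0.15) and Cdkn2d at 0.18 (SE 0.08). Without mouse 29, the values were 0.52 for Klf2, 0.54 for S1pr1, 0.36 for Bcl2l11 and 0.21 for Cdkn2d. Txnip, the most abundant target, was at 470 ± 56.9 CPM at 24 months and 952 ± 1248 CPM at 30 months, and its log2 fold change of 0.43 (SE 0.31) was 0.13 without mouse 29. The endothelial markers that moved with age are given with Insrr above, and their part in the Klf2 and S1pr1 values was not tested.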

How the data were processed

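RNA of 16 ear biopsies, 2 from each of 8 mice, was sequenced by the authors as single-end reads of libraries made with a kit that does not mark strand. The deposited table holds whole-number counts of reads per Ensembl gene, not normalized. The submitters' processing notes name CASAVA 1.8.4, TopHat2 2.1.0, HTSeq 0.6.1p1 and the mm10 build. How HTSeq was set for strand is not given in the sources used here. Rows that name no gene held 18.7% to 21.1% of counts and were left out.

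The members and all gene lists were chosen with earlier results of these data known. Counts were filtered with filterByExpr (minimum count 10), scaled by TMM and fitted with edgeR 4.0.16 (quasi-likelihood test, 30 against 24 months, mouse as a block, Benjamini-Hochberg adjustment over all 21526 genes tested, threshold 0.05). The mouse number pairs the samples because both libraries come from the same animal. Within an age group each library thus comes from a different animal, and both age groups hold the same animals. Log2 CPM used a prior count of 2. DESeq2 1.42.0 served as an alternative. RPKM used exon lengths of GENCODE M21 (GRCm38, the same build), which had 45143 of the 45706 identifiers, and a pseudocount of 0.01 on the log2 scale. The precision of a count is set by depth, 22967222 to 36162431 counts per library. On simulated counts for 21526 genes with 200 changed by 1 on the log2 scale, the paired fit recovered 176, with 10 unchanged genes called. The changed genes were drawn from those with higher mean counts, which leaves out genes as low as Insrr. Differences between mice were not simulated.

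All 10 members were named. From the pathway lists, genes with an unadjusted p under 0.05 (at most the 5 with the smallest p) and the most abundant gene of each list were named, and likeness was given for the 3 genes with the highest r, of which the first and some others are printed. Alternatives were DESeq2 size factors, the DESeq2 test, no filter, no mouse block, age in months as a covariate, leaving out each mouse, other exon lengths, and TMM-scaled RPKM. Correlations (also between biopsies) and list counts without mouse 29 or its 30-month library were added after seeing the data.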

Additional observations from a re-analysis of the deposited data

Results flagged for a closer look

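For each gene, the 8 libraries of each age and the 8 within-mouse changes were examined for a highest or lowest value far from the rest, by Dixon's criterion, and 6 of 30 such sets had one. Chance flags about 5% of independent sets, but these sets are not independent and hold the values by which the genes were chosen, so no chance figure applies to the 6. In 5 of them, the value was the 30-month library of mouse 29: the log2 CPM was 6.98 for Insr, 5.21 for Irs2, 6.62 for Foxo1, 7.53 for Foxo3 and 6.52 for Foxo4, each the highest of 8. These genes correlate across libraries, so the 5 values are 1 observation of that library. The other was the within-mouse change of Insrr in mouse 21, which was 2.68 on the log2 scale and the highest of 8. The Insrr value rests on few counts, at most 57 in a library.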

How the results depend on the processing

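Of the 10 age differences, those of Insrr, Igf1, Igf2, Irs1 and Irs2 had the same sign under all 13 alternatives, while Insr, Foxo1 and Foxo4 turned sign under 1 each, Foxo3 under 4 and Igf1r under 5. At the adjusted threshold, the count of genes was 0 with edgeR and the mouse block, 228 with the DESeq2 Wald test, 3 with edgeR and no replicate block (where 3341 genes had an unadjusted p under 0.05), and 0 in each fit that left out a mouse. The mouse block changed the call of no member. Members at an unadjusted p under 0.05 numbered 1 to 2 when each mouse was left out: Insrr each time, joined by Igf2 without mouse 13, 21 or 64, by Irs1 without mouse 29 and by Igf1 without mouse 50, where 8.55% to 17.6% of all genes were called in the same fits, so these counts show nothing particular to the members. With the longest transcript as length, the level differences of Foxo4 over Igf2 (-0.0216) and Foxo1 over Insr (-0.33) reversed, that of Foxo3 over Igf1 (0.39) lost its call and that of Igf1 over Foxo1 (0.64) gained one. Without the 2 mice farthest from the median at 24 months, the correlation between biopsies moved to -0.34 for Igf2, 0.44 for Irs2, -0.16 for Foxo3 and 0.38 for Foxo4. The median correlation among the 7 receptor, adaptor and FOXO genes was 0.52 without the 30-month library of mouse 29 against 0.80 with it. The cause of these differences was not tested. Depth limits Insrr most, with as few as 5 counts in a library.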
